A study of Mus musculus with 2 samples.

Results

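The 9 genes described here handle iron: the ferritin subunit genes Ftl1 and Fth1, the ferritin light chain pseudogene Ftl1-ps2, the ferritin autophagy receptor gene Ncoa4, the uptake and transport genes Tfrc, Slc11a2 and Slc11a1, the exporter gene Slc40a1 and the haem-degrading enzyme gene Hmox1. They are 9 of 15181 distinct genes in the 22 deposited tables, and they were chosen because earlier analysis of the same shares and fold changes had shown Ftl1 and Ftl1-ps2 to differ between the libraries. The values of all 9 are therefore given as a description, with no test. Of the 9 genes, 8 were in at least 1 of 18 cell cluster tables, Slc11a2 was in none, and all 9 were in each of 4 fibroblast subcluster tables.

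Droplet single-cell RNA sequencing was used on interstitial cells from mouse ventricles after myocardial infarction (MI), with 1 library per genotype. The control genotype was PostnMCM, in which Postn, a gene switched on as cardiac fibroblasts become myofibroblasts, drives a Cre that needs tamoxifen to act. The other genotype was Yapfl/fl;Wwtr1fl/+;PostnMCM, in which both Yap1 alleles and 1 allele of Wwtr1 (which encodes TAZ) can be deleted in those cells. Per the study's methods, mice had MI at 8 to 10 weeks of age and both strains also carried an R26-eGFP transgene. Both groups ate chow with tamoxifen at 0.4 g/kg, and the labels place heart collection 6 days after MI, while the study's methods place it a day later. The number of hearts in each library was not given in the sources used here. Cre acts in cells that express Postn, so recombination was not designed for the immune cells whose values are given below.

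The targeted genes were in none of the 18 cluster tables. In the subclusters, Yap1 was detected in 23.3% to 57.5% of control fibroblasts and in 40% to 56.2% of fibroblasts of the other library. Its log2 fold change was 0.04 to 0.31 and thus not below 0 in any subcluster, while that of Wwtr1 was between -0.30 and 0.15. These values cover all fibroblasts of a subcluster, whether or not they express Postn, so depletion was not tested by them. Per the study, staining of GFP-positive cells showed markedly less nuclear Yap and Wwtr1 protein in the other genotype. Below, labelled depleted refers to cells of that genotype, after the sample title. Of 7 fibroblast markers, Col1a1, Col1a2, Col3a1 and Dcn were found in 100% of cells of both libraries in all 4 subclusters, and Pdgfra, Postn and Tcf21 differed between libraries without one direction. Postn, whose locus carries the Cre, was found in 25.5%, 40%, 10% and 87.0% of control cells of subclusters 0, 3, 4 and 5 and in 28.1%, 13.0%, 20% and 100% of cells labelled depleted. The tables give neither the cell numbers nor the depth of each cluster. With 1 library per group there was no replicate check, so no difference below was tested and all statements describe these 2 libraries.

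Ferritin is a hollow shell of light and heavy chains that stores iron in a harmless form, and the heavy chain oxidises iron so that it can be stored. Transferrin receptor (Tfrc) takes iron into cells, divalent metal transporters move it out of endosomes and phagosomes, and ferroportin (Slc40a1) is the exporter. Iron regulatory proteins bind a hairpin, the iron-responsive element, in several of these mRNAs: they block translation when the hairpin is in the 5′ untranslated region (UTR) and stabilise the mRNA when it is in the 3′ UTR. In the injured heart, macrophages take up red cells and dying muscle and recycle their iron through Hmox1, ferritin and ferroportin.

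Ftl1 and Ftl1-ps2 are nearly the same sequence, and so their counts depend on a few bases. On GRCm39, Ftl1 lies on the minus strand at chr7:45107367-45109308 and has 4 exons. Ftl1-ps2 is annotated as a processed pseudogene on the minus strand at chr10:130428026-130428574, and sequence matching the Ftl1 mRNA extended around it over chr10:130427860-130428779 with no introns. This copy covered 923 of the 969 bases of the mRNA with 22 substitutions and 3 missing bases, which is an identity of 97.3%. Of the substitutions, 7 were in the 5′ UTR, 12 in the coding sequence and 3 in the 3′ UTR. The last 300 bases of the mRNA, near the end that 3′ chemistry reads, held 6 substitutions and the last 100 bases held 1. The reading frame of the copy was open for 183 residues, as many as in Ftl1, with 9 residues altered. Shown is the coding part of the last Ftl1 exon (coding positions 376 to 552, chr7:45107531-45107707, minus strand) above the same stretch of the pseudogene (chr10:130428023-130428199, minus strand), with the 5 differing bases in capitals, since these are among the bases by which a read can be assigned to either gene.
Ftl1: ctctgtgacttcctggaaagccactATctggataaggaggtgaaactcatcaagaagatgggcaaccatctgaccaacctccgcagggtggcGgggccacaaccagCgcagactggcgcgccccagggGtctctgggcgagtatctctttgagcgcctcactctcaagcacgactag
Ftl1-ps2: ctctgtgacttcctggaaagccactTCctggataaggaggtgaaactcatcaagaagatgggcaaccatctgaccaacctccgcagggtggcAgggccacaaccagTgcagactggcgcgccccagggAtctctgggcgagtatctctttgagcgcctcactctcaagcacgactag

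Counted from 1 at the 5′ end of the Ftl1 mRNA, these 5 differences are A654T, T655C, G721A, C735T and G757A, with the base of Ftl1 first. The reference genome held 5 copies, Ftl1-ps2 among them, that covered at least 80% of the Ftl1 mRNA at an identity of at least 95%. The closest was 99.5% identical over 926 bases, on chromosome 13. For Fth1 the closest copy was 88.3% identical, and for the other 6 protein-coding members no such copy was found. Cell Ranger counts only reads that it can place in a single gene, and which of the Ftl1 copies its reference annotated was not given in the sources used here. The values of Ftl1 and Ftl1-ps2 are thus uncertain as measures of 2 separate transcripts, and their part in each other's values was not tested, since reads were not used here. Genotype and any difference in strain background between the libraries, sequence variants at these loci included, cannot be told apart.

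**Figure D1:**
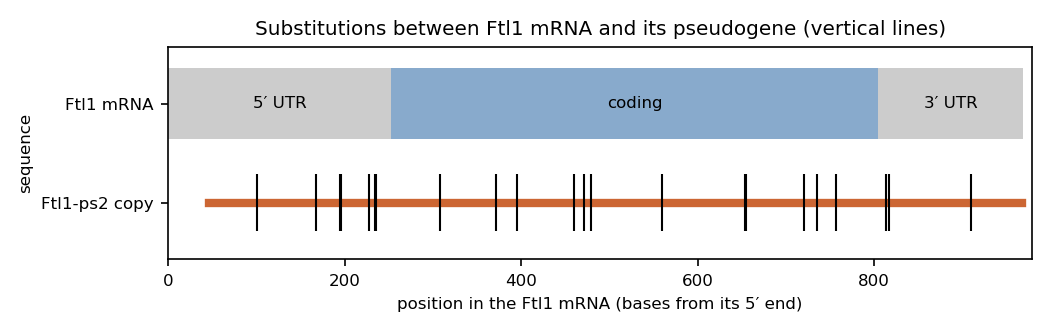
Map of the Ftl1 mRNA (top bar, with its 5′ UTR, coding sequence and 3′ UTR) and of the matching copy at Ftl1-ps2 (lower line) by position in the mRNA in bases. Vertical lines mark the 22 substitutions, of which 6 lie in the last 300 bases.

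Members also share a regulatory element. The iron-responsive element was searched on the mRNA strand as a C, an arm of 5 bases, the loop CAGTG with a further A, C or T, and a second arm of 5 bases that pairs with the first. Of 21525 protein-coding genes, 34 (0.158%) held it in the 5′ UTR and 123 (0.571%) in the 3′ UTR. Fth1, Ftl1 and Slc40a1 each held 1 in the 5′ UTR, and Tfrc held 4 in the 3′ UTR. None was found by these letters in Slc11a2, Slc11a1, Hmox1 or Ncoa4. The elements are shown with the loop in capitals, with the first of the 4 for Tfrc. Those in the 5′ UTR mark members whose protein need not follow their mRNA, whereas those of Tfrc bear on the stability of its mRNA. They lie at chr19:9960098-9960122 (plus strand), chr7:45109205-45109229 (minus), chr1:45964627-45964651 (minus) and chr16:32450039-32450063 (plus).
Fth1: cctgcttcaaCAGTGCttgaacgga
Ftl1: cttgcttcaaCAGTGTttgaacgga
Slc40a1: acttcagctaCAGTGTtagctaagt
Tfrc: ttatcggaagCAGTGCcttccataa

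Ftl1-ps2 was higher in the library labelled depleted in all 18 clusters and all 4 fibroblast subclusters. Values are the share of cells with a corrected count above 0 and the deposited log2 fold change, which is the library labelled depleted minus control. In control cells the pseudogene was found in 0% to 5.2% of cells of any cluster, and in the other library in 28.3% to 100%. Among fibroblasts (cluster 5) it was found in 0% of control cells and 85.6% of cells labelled depleted, with a log2 fold change of 1.55. In the macrophage and monocyte clusters 0, 3, 11, 12 and 13 the control shares were 1.3%, 3.9%, 1.4%, 0% and 4.2%, and the shares labelled depleted were 96.7%, 99.6%, 81.2%, 72.2% and 98.6%. The log2 fold changes were 3.12, 3.12, 1.81, 1.99 and 3.06.

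The other myeloid cells also had the pseudogene in most cells of the library labelled depleted. Dendritic cells (cluster 17) had 0% in control and 100% labelled depleted (log2 fold change 1.67). The neutrophil clusters 1 and 18 had 5.2% and 0% in control against 70.7% and 70.6%, with log2 fold changes of 2.47 and 1.23. The lymphoid clusters stood below all of these in the library labelled depleted. B cells (cluster 2) had 0.5% in control and 35.0% labelled depleted, and the natural killer cells of cluster 14 had 0% and 30.8%. T cell clusters 4, 7, 8 and 10 had 1.6%, 3.0%, 1.2% and 0% in control and 50%, 28.3%, 33.3% and 47.3% in the other library, with log2 fold changes of 1.09, 0.62, 0.68 and 0.77. Clusters 6 (proliferative) and 9, which the study describes, like cluster 10, as mostly cells of the floxed genotype, and cluster 15, which it does not name, had 30.1%, 38.1% and 68.2% in the library labelled depleted.

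**Figure D2:**
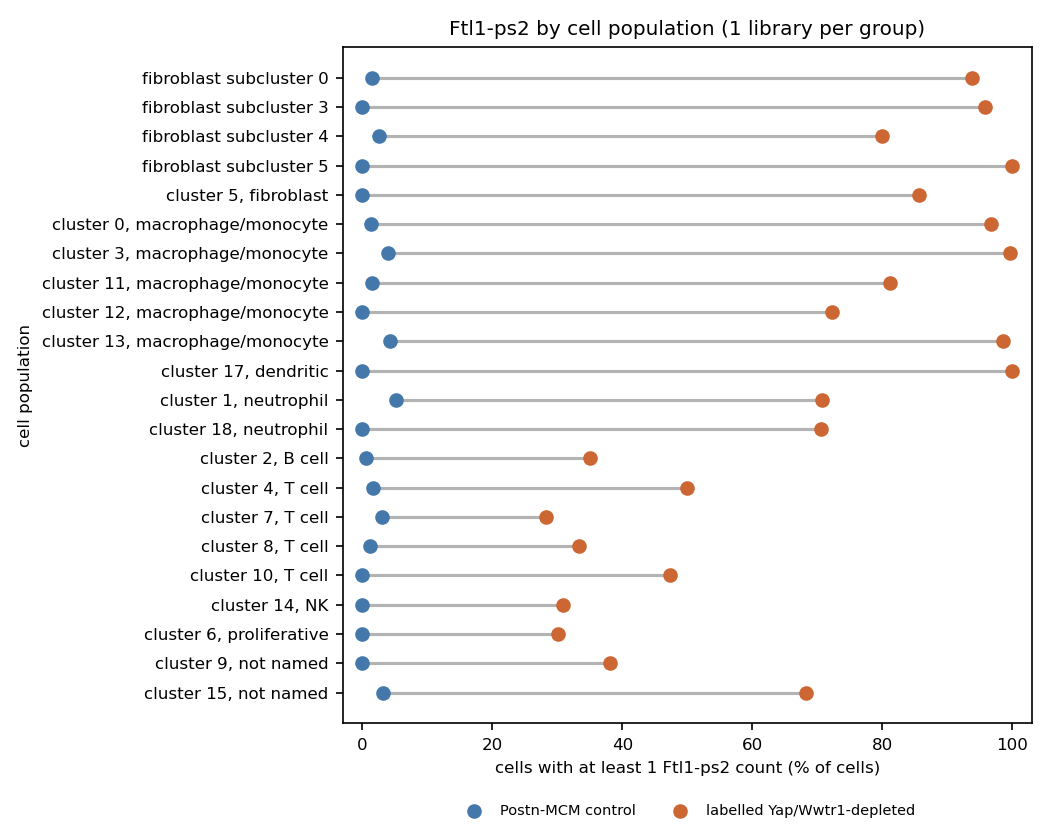
Share of cells with at least 1 corrected Ftl1-ps2 count (percent) in each of 22 cell populations, with 1 point per library and no error bars because each group was 1 library. Control points lie at or below 5.2% throughout, and points labelled depleted lie between 28.3% and 100%.

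Within the fibroblast subclusters the shift was of the same kind. Subcluster 0 (epicardial-like in the study) had 1.4% in control and 93.8% labelled depleted, subcluster 3 (proliferating) 0% and 95.7%, subcluster 4 2.5% and 80%, and subcluster 5 0% and 100%. The log2 fold changes were 2.57, 2.67, 2.17 and 2.63. Where no control cell had a count, the fold change gives the mean level in the other library, taking the default pseudocount of 1. By that reckoning fibroblasts of cluster 5 held a mean of 1.93 corrected counts per cell, cluster 12 held 2.96, cluster 17 held 2.18 and cluster 6 held 0.499. Fibroblast subclusters 3 and 5 held 5.35 and 5.19, but the authors normalized the fibroblasts anew before subclustering, so that levels and shares of subclusters and of clusters are on different scales. Among 6477 distinct genes in the cluster tables, Ftl1-ps2 was the 1 gene (0.0154%) listed as higher in all 18, and it had the highest log2 fold change of its table in clusters 0, 3 and 12. The members were chosen on these values, so nothing is read from that share.

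Ftl1 ran the other way. It was lower in the library labelled depleted in 17 of 18 clusters and in all 4 subclusters, although nearly every cell had it: control shares were 99.4% to 100%, and those labelled depleted 97.8% to 100% in all clusters except cluster 6, where the share was 85.9%. The difference was therefore mostly one of level. The log2 fold change was -1.47 in cluster 0, -0.91 in cluster 3, -1.38 in cluster 11, -1.32 in cluster 12 and -0.48 in cluster 13, all macrophages or monocytes. In cluster 12 it was the lowest of the 650 genes listed. Markers of several cell types were also mostly lower across the clusters, in which 52.3% of all listings of any gene were lower. The 8 macrophage and monocyte markers had 24 listings lower and 7 higher, and the 5 neutrophil markers 28 and 3. Lyz2 was lower in 12 of 13 clusters, T cell clusters among them, while Ly6c2 was higher in 4 of 5 and Adgre1 in 2 of 2. The 7 fibroblast markers had 10 lower and 3 higher, and the 3 T cell markers 1 and 3. Their part in the values of Ftl1 was not tested.

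Fibroblasts had a log2 fold change of -0.80 for Ftl1 in cluster 5, and of -0.90, -0.90, -1.06 and -0.45 in subclusters 0, 3, 4 and 5. Lymphoid clusters ranged from -0.36 (natural killer, cluster 14) to -0.96 (T cells, cluster 10). Dendritic cells (cluster 17) were at -1.0 and neutrophils of cluster 18 at -0.75. Neutrophils of cluster 1 were the exception: there Ftl1 was not listed, so that it had no value, while Ftl1-ps2 stood at 2.47. Of 6477 genes, Ftl1 was the 1 gene (0.0154%) listed as lower in at least 17 clusters. The cut-off of 17 is the count of Ftl1 itself and the members were chosen on these values, so nothing is read from that share.

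Ftl1 and Ftl1-ps2 were thus listed in opposite directions in each of the 17 clusters that held both. The sizes did not mirror each other closely. Cluster 13 had one of the highest values of the pseudogene (3.06) beside -0.48 for Ftl1, whereas cluster 6 had its lowest value (0.58) beside -1.02 for Ftl1. Across the 17 clusters, which share both libraries, Pearson's r of the 2 log2 fold changes was -0.31. Because each value is taken on a log scale after adding 1, the same number of counts gives a smaller value in a highly counted gene than in a gene near 0.

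Fth1, the ferritin heavy chain gene (chr19:9957911-9962462, plus strand), was listed in both directions where Ftl1 was listed in one. It was found in 90.9% to 100% of control cells and in 100% of cells labelled depleted in the 10 clusters that listed it, 5 of them lower and 5 higher. It was lower in cluster 0 (-0.37), cluster 11 (-0.28), cluster 12 (-0.37), dendritic cells of cluster 17 (-0.33) and neutrophils of cluster 18 (-0.45). It was higher in cluster 13 (1.05), fibroblasts of cluster 5 (0.59), neutrophils of cluster 1 (0.52), natural killer cells of cluster 14 (0.40) and T cells of cluster 8 (0.26). Macrophage and monocyte clusters thus stood on both sides. Centred on the table median, clusters 1, 8, 11, 12, 14, 17 and 18 had 0.23, -0.01, -0.02, -0.11, 0.14, -0.06 and -0.16, all under 0.25 in size. This left 1 cluster lower and 2 higher past that limit. Cluster tables lack values under 0.25 in size, so their medians, which ran from -0.29 to 0.29, lay just past it in size. Centring thus moves values by about the limit itself, and nothing about Fth1 is read from this loss. In the fibroblast subclusters Fth1 was in 100% of cells of both libraries, with log2 fold changes of 0.35, 0.59, -0.04 and -0.12 in subclusters 0, 3, 4 and 5. In the 9 clusters that listed both ferritin chains, Fth1 was in the direction of Ftl1 in 5 and opposite in 4. Over these 9 clusters, which share both libraries and hold only values past the limit of 0.25, Pearson's r of both log2 fold changes was 0.72. Clusters 0, 11 and 12, with the lowest Ftl1, had Fth1 below 0, but the lowest Fth1 was in cluster 18, where Ftl1 was at -0.75.

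**Figure D3:**
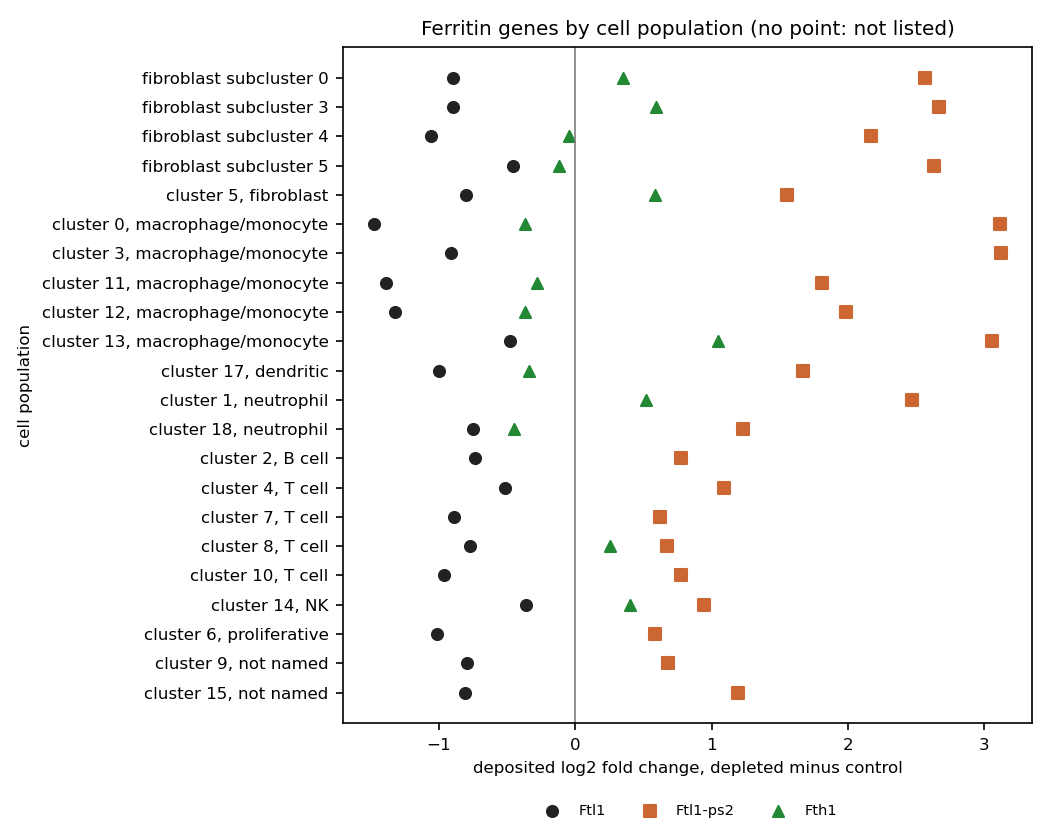
Deposited log2 fold change (library labelled depleted minus control, horizontal axis) of Ftl1, Ftl1-ps2 and Fth1 in 22 cell populations, 1 point per gene and population. All Ftl1 points lie below 0 and all Ftl1-ps2 points above 0, while Fth1 points lie on both sides, from -0.45 to 1.05.

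Ncoa4 (chr14:31881822-31902234, plus strand) encodes the receptor that brings ferritin to autophagosomes, where its iron is released. It was higher in fibroblasts of the library labelled depleted. In cluster 5 it was found in 25.8% of control cells and 73.8% of cells labelled depleted, with a log2 fold change of 1.24. Per the study, subclusters 0, 2 and 4 came mainly from control hearts and subcluster 1 mainly from the floxed genotype, so values of cluster 5 compare unlike mixtures of fibroblasts, and those of subclusters 0 and 4 set fewer cells labelled depleted against control cells. Subcluster 0 had 60.7% against 96.9% (2.15), subcluster 3 had 70.0% against 95.7% (1.59), and subcluster 4 had 62.5% against 90% (1.49). Subcluster 5 was apart, with 39.1% against 42.9% and a log2 fold change of -0.19. In subcluster 0 Ncoa4 had a log2 fold change that ranked 5 from the top of the 15059 genes. Outside fibroblasts it was listed for dendritic cells alone (cluster 17, 5.0% against 27.3%, 0.38).

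Among the uptake genes, the transferrin receptor gene Tfrc (chr16:32427556-32451612, plus strand) was listed in 2 clusters. It was lower in the proliferative T cells of cluster 10 (log2 fold change -0.30), though the share of cells was 27.3% in control and 29.6% in the other library. It was higher in cluster 15 (53.1% against 63.6%, 0.26). In the subclusters it was detected in 3.1% to 13.3% of cells of either library, with log2 fold changes between -0.13 and 0.19.

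Slc11a2, the divalent metal transporter of endosomes (chr15:100285776-100322953, minus strand), was in no cluster table. Its shares in subclusters 0, 3, 4 and 5 were 11%, 23.3%, 12.5% and 34.8% in control and 12.5%, 26.1%, 20% and 33.3% in the other library. The log2 fold changes were 0.00, 0.22, 0.03 and -0.09, all below the limit of 0.25 in size that the cluster tables used. Slc11a1, the phagosomal transporter of macrophages and neutrophils (chr1:74414303-74425448, plus strand), was listed in neutrophils of cluster 1, with 27.0% in control, 35.1% labelled depleted and a log2 fold change of 0.30. Centring on the table median gave 0.02, a shift set mostly by the limit of 0.25, as given for Fth1. Its log2 fold changes in the subclusters ranged from -0.14 to 0.18, at shares of 4.8% to 20%.

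The exporter gene Slc40a1 (chr1:45947211-45965683, minus strand) was listed for the neutrophils of cluster 18, where its log2 fold change was 0.37 at nearly equal shares, 54.5% in control and 52.9% in the other library. In subclusters 0, 3 and 4 it was found in 9.7%, 6.7% and 5.0% of control fibroblasts and in 0% labelled depleted, and in subcluster 5 in 8.7% and 9.5%. Those subcluster log2 fold changes lay between -0.24 and 0.01. The tables do not give the number of cells behind a share of 0%, and no detection limit was derived here.

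Hmox1 (chr8:75820241-75827217, plus strand), which splits haem into iron, carbon monoxide and biliverdin, was listed in 4 of the 5 macrophage and monocyte clusters and in no other cluster. It was lower in cluster 0 (82.6% in control, 77.6% labelled depleted, log2 fold change -0.92), cluster 12 (44.8% and 38.0%, -0.82) and cluster 13 (54.7% and 53.5%, -0.28). In cluster 3 it was higher (51.4% and 60.6%, 0.41). The macrophage clusters thus differed in direction among themselves. Fibroblast subclusters 0, 3 and 4 had control shares of 44.8%, 46.7% and 60.0% against 18.8%, 34.8% and 30.0%, with log2 fold changes of -0.48, -0.24 and -0.91, and subcluster 5 had 34.8% against 47.6% (0.26). In size, the value of subcluster 5 just passed the limit of 0.25 and that of subcluster 3 just missed it.

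Markers of other cells moved in these fibroblasts too. In subcluster 0, all 8 macrophage and monocyte markers were in a lower share of cells labelled depleted, with a mean share over the list of 31.6% against 53.5% in control. In subclusters 3, 4 and 5, 6, 5 and 6 of the 8 were lower, with means of 38.6%, 40% and 29.2% against 50%, 51.6% and 42.9%. Cd68 was at 0% in the library labelled depleted in subcluster 5, and no macrophage marker was at 0% there in the other subclusters. All 5 neutrophil markers were lower in subclusters 0, 3 and 4, and 3 of 5 in subcluster 5. T cell markers went the other way in subclusters 3, 4 and 5, where both of those in the tables, Cd3d and Cd3e, were higher, with means of 26.0%, 20% and 28.6% labelled depleted against 8.4%, 7.5% and 6.5% in control.

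Erythroid markers, the globins and Alas2, were lower in the library labelled depleted, all 5 in subclusters 0, 3 and 5 and 4 of 5 in subcluster 4. Their mean share was 12.1% to 24.0% in control and 0% to 4.3% labelled depleted, and in subclusters 4 and 5 all 5 were at 0% in that library. Hbb-bs, a beta globin, was found in 38.6%, 43.3%, 45.0% and 30.4% of control cells of subclusters 0, 3, 4 and 5, and in 3.1%, 4.3%, 0% and 0% of the others. It was also listed as lower in cluster 0 (25.8% and 4.6%), cluster 17 (35.0% and 0%) and cluster 18 (36.4% and 0%). The part of macrophage, neutrophil or red cell RNA in the values of Hmox1, Slc40a1, Slc11a1 and the ferritin genes was not tested. Per the study's methods, red cells were lysed with ACK buffer and the remaining cells were sorted before capture.

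**Figure D4:**
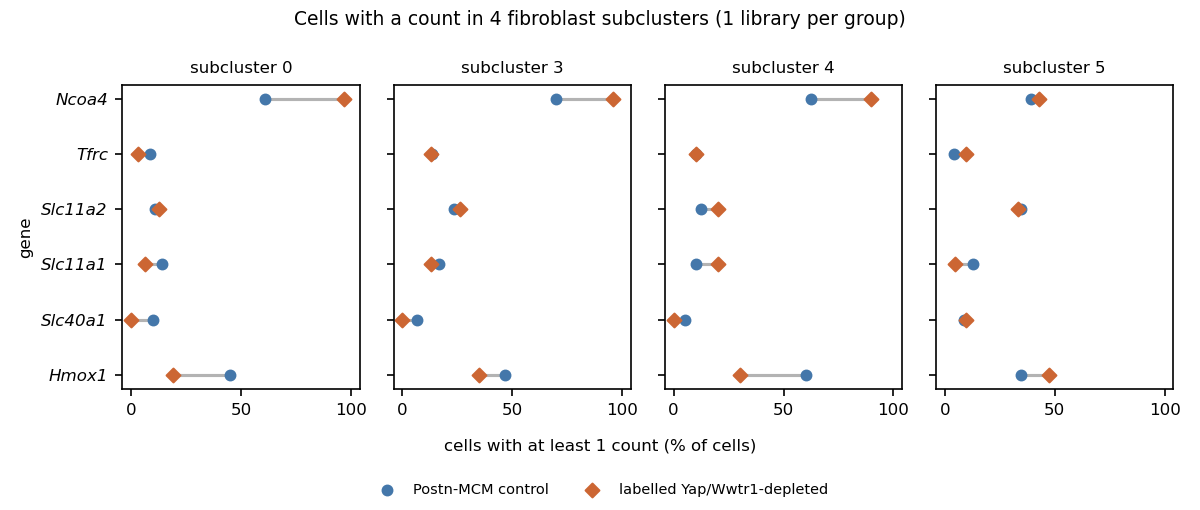
Share of cells (percent, horizontal axis) with at least 1 corrected count of 6 iron genes in fibroblast subclusters 0, 3, 4 and 5, 1 point per library and no error bars. Ncoa4 was at 60.7% in control and 96.9% labelled depleted in subcluster 0, and at 39.1% and 42.9% in subcluster 5, and Hmox1 was lower in subclusters 0, 3 and 4 and higher in subcluster 5.

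The 7 members other than Ftl1 and its pseudogene did not follow Ftl1 as a group. They had 20 listings of a possible 126 in the cluster tables, 9 lower (45.0%) and 11 higher, with a median log2 fold change of 0.26. Over all 15431 listings of any gene, 52.3% were lower and the median was -0.26. Of the 18 listings in clusters that also listed Ftl1, 9 were in its direction and 9 opposite. Ftl1 was lower wherever it was listed, so this count only restates the lower listings. Of the 20 listings, 10 were of Fth1 and none of Slc11a2, so nothing is read about the 7 genes as a group. In 5 of 18 clusters none of the 7 was listed. Fth1, Hmox1 and Tfrc, 3 of the 8 members in cluster tables, were listed in both directions, and 32.8% of the 6477 genes were.

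In the subclusters, where every gene has a value, 8 of the 28 values of these 7 genes passed both limits (0.25 in size and 25% of cells in either library), 2 lower and 6 higher, and 20 did not. With Ftl1 and Ftl1-ps2 counted, subcluster 0 had 2 members lower and 3 higher, where 5.56% of all 15059 genes were lower and 7.03% higher. Subcluster 3 had 1 lower and 3 higher (9.04% and 8.27% of all genes), subcluster 4 had 2 and 2 (11.8% and 15.3%), and subcluster 5 had 1 and 2 (13.0% and 11.3%). The same contrasts chose the members, so these shares are given without a reading.

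**Figure D5:**
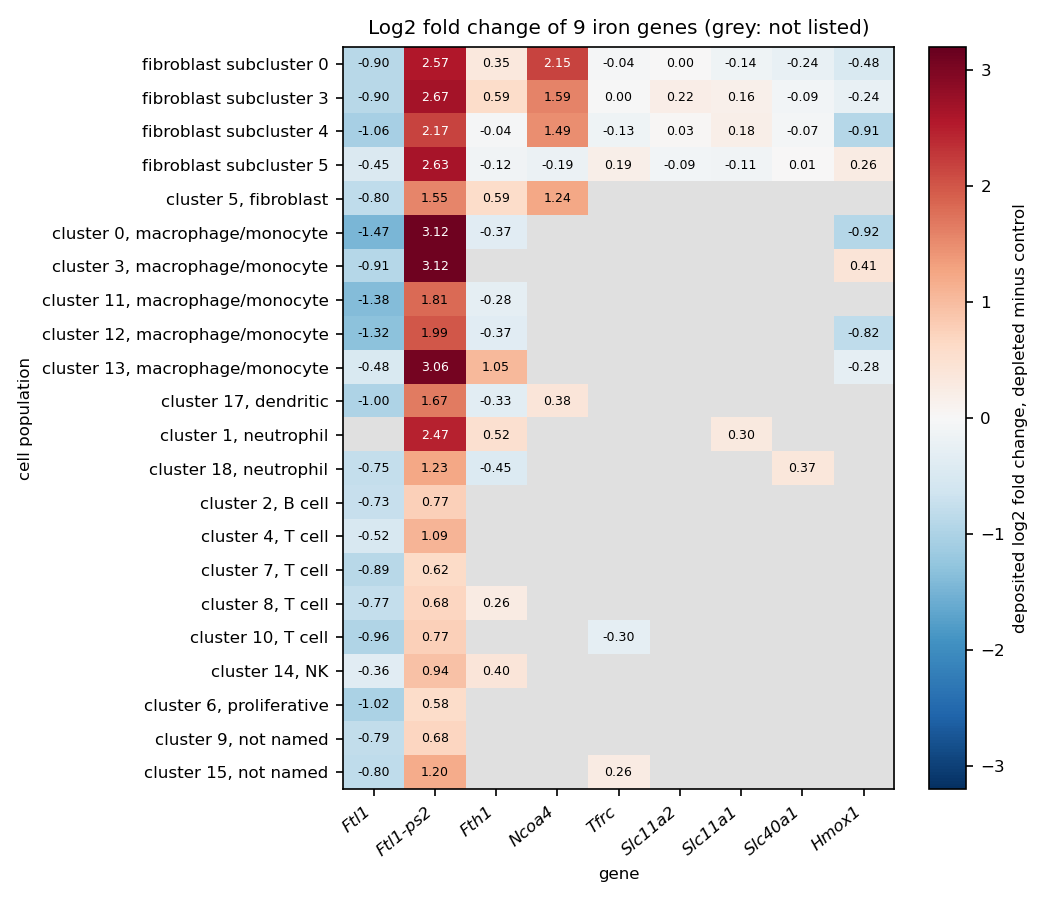
Deposited log2 fold change of the 9 members (columns) in 22 cell populations (rows), blue for lower and red for higher in the library labelled depleted, grey where the gene was not listed. The column of Ftl1 is blue in every row except neutrophil cluster 1, where it is grey, the column of Ftl1-ps2 is red throughout, and most cells of the other columns outside the subclusters are grey.

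A wider list of 89 iron genes had 46 genes in the cluster tables, with 125 listings, 78 lower (62.4%, beside 52.3% of all listings) and 47 higher, and a median log2 fold change of -0.28 beside -0.26 over all listings. By role, iron chaperones and ferritin relatives had 0 lower and 6 higher, all from Pcbp1 and Pcbp2, which hand iron to ferritin. Uptake genes had 8 lower and 2 higher, and haem genes 15 and 12. Genes of export and of the hepcidin pathway had 7 and 1. The lower ones were of Smad7 (3), Id1 (3) and Hfe (1), and the 1 higher was of Cp, the only listed gene of export itself. The list of iron regulatory proteins and their control had 4 lower and 9 higher, all from Ndfip1, Nedd4, Nubp1, Ciao1 and Herc2. Aco1 and Ireb2, the genes of these proteins themselves, were not listed. Genes of mitochondrial iron and iron-sulphur clusters had 19 and 5, and genes of the NRF2 programme, which also drives ferritin and Hmox1, 25 and 12.

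Glutathione reductase (Gsr) was lower in all 8 clusters that listed it, from -1.12 to -0.34, among them neutrophils, fibroblasts and 4 macrophage or monocyte clusters. Gpx4, the peroxidase that guards against iron-dependent lipid peroxidation, was lower in 5 and higher in 3, from -0.81 to 0.49. Txnrd1, a thioredoxin reductase, was lower in 4 of 5, from -0.50 to 0.29. Bach1, the haem-sensing repressor of Hmox1, was higher in 6 of 7, from -0.27 to 0.37: in cluster 0 it stood at 0.35 where Hmox1 was at -0.92, and in cluster 12 at 0.29 where Hmox1 was at -0.82, but in cluster 3 both were higher (0.34 and 0.41) and in cluster 13 both were lower (-0.27 and -0.28). Hp, which encodes the haemoglobin scavenger haptoglobin, was lower in 4 of 6, from -1.18 to 0.45.

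In the fibroblast subcluster tables, 79 genes of the wider list had values. Past both limits in subclusters 0, 3, 4 and 5, 11, 6, 20 and 14 of them were lower (13.9%, 7.59%, 25.3% and 17.7%, beside 5.56%, 9.04%, 11.8% and 13.0% of all genes). Higher were 10, 13, 10 and 10 (12.7%, 16.5%, 12.7% and 12.7%, beside 7.03%, 8.27%, 15.3% and 11.3%). Over all genes many were too rarely detected to reach 25% of cells, so the shares differ in what could pass. Trf, which encodes the iron carrier transferrin, was higher in subclusters 0, 3 and 4 (0.99, 1.07 and 0.70) and in cluster 5 (1.14), and was -0.29 in subcluster 5. Cp, the ceruloplasmin ferroxidase that works with ferroportin, had 0.94, 0.76 and 0.64, and -0.39 in subcluster 5. Trf and Cp thus shared their signs with Ncoa4, for which subclusters 0, 3 and 4 were well above 0 and subcluster 5 was below it.

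The metal importer gene Slc39a8 was higher in subclusters 0 (0.52) and 3 (0.61), and the metalloreductase gene Steap1 in subclusters 0 (0.60) and 4 (0.53). Hp was lower in subclusters 0, 4 and 5 (-1.18, -1.23 and -1.47), beside the neutrophil markers given above, and is a gene that neutrophils also express. Id1, a target of the BMP signalling that controls hepcidin in liver, was lower in subclusters 0, 3 and 4 (-0.88, -0.67 and -0.60) and 0.82 in subcluster 5.

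The genes whose fold changes were most like those of Ftl1 were Lyz2 (Pearson's r = 0.39 over 12 clusters), Gm7429 (r = 0.36 over 14) and Slc38a2 (r = 0.33 over 12), of 31 genes with at least 12 shared clusters. For Ftl1-ps2 they were BC018473 (r = 0.68 over 16), Crip1 (r = 0.68 over 12) and Apoe (r = 0.54 over 12), of 37 genes. Apart from Ftl1 and Ftl1-ps2, no member or gene of the wider list was in as many as 12 clusters, so none could enter this comparison. Fth1 was listed in 10, and its r with Ftl1 over the 9 clusters that listed both was 0.72, given above. The clusters share both libraries, and these values are descriptions.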

How the data were processed

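Cells of 2 libraries were compared, 1 per genotype. The authors aligned reads with Cell Ranger 6.1.1 to GRCm39, combined the libraries without depth normalization, normalized counts with SCTransform in Seurat and clustered the cells. The authors deposited, per cluster, the fraction of cells with a corrected count in each library (printed as a percent) and an average log2 fold change with a pseudocount of 1. Checked on the files, a gene was in a cluster table only where its fold change reached 0.25 in size and 25% of either library's cells had it, while subcluster tables held all 15059 genes. The authors' p-values over cells were not used. No test was made. The tables do not give cell numbers or depth per cluster, so no intervals are given. The fibroblasts were normalized again before subclustering. Free RNA and doublets could not be assessed.

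Members and gene lists were chosen with earlier results of these data known. Named were all members, other iron genes listed in at least 5 clusters or past 0.5 and 25% in at least 2 subclusters in one direction, and the 3 genes most like Ftl1 or Ftl1-ps2 over at least 12 clusters. Sequences came from GRCm39 and GENCODE vM39, copies from blastn 2.17.0 and the alignment from Biopython 1.88. The search and alignment were tested on simulated sequences. Alternatives were other limits on size and share, the ratio of shares, centring on the table median (also with the size limit applied again, added after seeing the data) and leaving out clusters 6, 9, 10 and 15. Not analysed here were cluster 16 and subclusters 1 and 2 of the fibroblasts.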

Additional observations from a re-analysis of the deposited data

Results flagged for a closer look

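Fth1, Tfrc and Hmox1 were each higher in one population and lower in another under the same comparison of the libraries, and the difference between populations was not tested. They were 3 of the 8 members in cluster tables, and 32.8% of the 6477 genes in those tables were listed in both directions. Fth1 ranged from -0.45 on the log2 scale in the neutrophils of cluster 18 to 1.05 in the macrophages or monocytes of cluster 13. Tfrc was at -0.30 in the T cells of cluster 10 and at 0.26 in cluster 15; the study describes cluster 10 as mostly cells of the floxed genotype and does not name cluster 15. For Tfrc the split rested on these clusters and on level: by the ratio of shares it was higher in both (0 lower, 2 higher), and at a size limit of 0.5 it had 0 listings in either direction. Hmox1 was at -0.92 in cluster 0 and at 0.41 in cluster 3, both of macrophages or monocytes. At a size limit of 0.5 Hmox1 was lower in 2 clusters and higher in 0. Centring on the table median gave 0.14 in cluster 3, a shift set mostly by the size limit of the cluster tables, as given for Fth1. Nothing about Hmox1 is read from that shift.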

How the results depend on the processing

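No paired analysis was possible because there was 1 library for each genotype, and as cell numbers were not stated, no precision is given for a share. Counts here are of cluster tables or listings. At a size limit of 0.5, Fth1 was lower in 0 and higher in 3 clusters, the other 7 members had 2 listings in the direction of Ftl1 and 2 opposite, and the wider list had 22 lower and 8 higher. At a limit of 1, Ftl1 was lower in 4 clusters, Ftl1-ps2 higher in 11, both opposite in 3, Fth1 lower in 0 and higher in 1, the other members had 0 listings in the direction of Ftl1 and 0 opposite beside an Ftl1 listing, and the wider list 4 lower and 3 higher. Among genes in at least 50% of cells, Ftl1-ps2 was higher in 11 clusters and opposite to Ftl1 in 10, and the wider list had 42 lower and 31 higher. By the ratio of shares, Ftl1 was lower in 6 clusters, higher in 1 (cluster 8, 99.4% in control and 100% labelled depleted) and opposite to Ftl1-ps2 in 6, Fth1 lower in 0 and higher in 2, and the other members 0 in the direction of Ftl1 and 2 opposite: Ftl1 and Fth1 were in nearly all cells, which leaves their shares little room to differ. By sign alone, centring each table on its median moved none of these counts by over 1.5 times. With the limit of 0.25 applied again to the centred values, an alternative chosen after seeing the data, Fth1 was lower in 1 and higher in 2 clusters, the other members had 5 listings in the direction of Ftl1 and 6 opposite, the wider list had 44 lower and 26 higher, and Ftl1 and Ftl1-ps2 kept 17 lower and 18 higher. Cluster tables lack values under 0.25 in size, so centring moves values by about that much and such losses are largely built in. Leaving out clusters 6, 9, 10 and 15 moved none by over 1.5 times but left Tfrc with 0 listings.

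In the subclusters at a limit of 0.5, members lower were 1 in subcluster 0 and 0 in subcluster 5, and 1 was higher in subcluster 5. The wider list had 4 lower and 4 higher in subcluster 0, 2 and 6 in subcluster 3, 3 and 3 in subcluster 4, and 4 and 2 in subcluster 5. Accepting genes in at least 10% of cells moved no count by over 1.5 times. No member past both limits in a subcluster changed sign by centring or by the ratio of shares, where Ftl1 and Fth1 gave 0 because every cell had them. Other causes were not tested.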
